A study of Mus musculus with 1 sample.

Results

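Fibroblast growth factors (FGF), epidermal growth factor (EGF) and the neuregulins are secreted or membrane-bound ligands that act through receptor tyrosine kinases. The levels of 9 genes of this system were described in single-cell RNA sequencing (sc-RNA Seq) data of the newborn mouse cortex. They comprise the FGF receptors Fgfr1, Fgfr2 and Fgfr3, the EGF receptor Egfr, its relatives Erbb2, Erbb3 and Erbb4, and the neuregulin ligands Nrg1 and Nrg3. The genes were chosen by name, and all 9 were found by symbol among the 51912 genes listed.

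The data comprised 1 wild-type (WT) library from the cerebral cortex of C57BL/6 mice at P0 (day of birth), with no treatment given in the labels. The labels do not say how many pups were used, and the SERPINA3 knock-in mice of the study were not analysed here. The paper describes breeding the knock-in founders with B6D2F2 mice, and it does not say whether these WT mice came from that line. The library held 11062 cells and 90346034 unique molecular identifiers (UMIs), each UMI standing for 1 captured transcript, with a median of 7197 UMIs per cell. As there was 1 library, no value has a replicate error and no test was possible, and the 95% intervals in brackets cover counting error only.

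FGF receptors on dividing progenitors of the ventricular wall are known to keep these cells in the cell cycle and to hold back neuron formation, and later they help to specify glia. EGFR marks progenitors that are turning to the glial lineage, and cells with much EGFR divide in response to EGF or TGFα. ERBB2 has no known ligand and signals as a partner of the other receptors, whereas ERBB3 binds neuregulins but has little kinase activity of its own. ERBB4 binds neuregulins and is an active kinase, and in the cortex it is known as a receptor of inhibitory interneurons.

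Cells were classed by UMIs of marker genes, and none of the 9 genes was used to class a cell. Of the 8202 cells with at least 2000 UMIs from nuclear genes and under 10% mitochondrial UMIs, 4500 fell in a single class. A further 193 carried the markers of several classes and were left out, and 3509 fell in none, of which 2783 carried the excitatory neuron markers Neurod6 and Neurod2 without meeting a layer rule. The 12 classes with at least 50 cells were 235 radial glia, 160 cells with Olig1 or Olig2 but no Pdgfra UMI (Olig-positive cells without Pdgfra), 132 oligodendrocyte precursors with Pdgfra and Olig1 or Olig2, 94 dividing cells outside both Olig-positive groups, 194 newborn neurons with Eomes, 1506 young upper-layer neurons with Igfbpl1, 270 layer II/III, 510 Rorb-gated, 51 Bcl11b-gated and 954 layer VI neurons, 143 medial and 151 caudal interneurons. All layer neurons together, including 35 of layer VIb, came to 3326 cells. The radial glia gate also takes young astrocytes, which share its markers. The newborn neuron gate asked for Eomes but not for Neurod6 or Neurod2, so it can also take progenitors that were not dividing. Pax6, a gene of radial glia, stood in that class at 55.1% of its radial glia level.

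Genes that were held back to check the classes were highest in the named class for 6 of 6 in radial glia, 4 of 4 in dividing cells, 4 of 4 in newborn neurons and 4 of 5 in oligodendrocyte precursors. They were highest there for 3 of 4 in layer VI, 2 of 3 in caudal interneurons, and 1 of 3 in the Olig-positive cells without Pdgfra, layer II/III, young upper-layer neurons, layer VIb and medial interneurons. The gates built for layer IV (Rorb, Inhba and Cux1) and layer V (Bcl11b with Fezf2, Ldb2 or Crym) had 0 of 3 each. Hence both are named by their gate gene and not as layers. Layer II/III keeps its name, but Nr4a2, a check gene of layer VIb, was highest in layer II/III, so that class may be mixed. Median depth of the 12 classes ran from 4576 UMIs in caudal interneurons to 19690 in Bcl11b-gated neurons.

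Promoter windows of RefSeq, from 250 bases before to 50 bases after a start site on GRCm38.p6, were found for 6 of the 9 genes, 7 windows in all. The build was not matched to that of the counts, which carry symbols only, so no coordinate was read from the counts. The windows of 4 receptors are shown, each on the strand of its gene, because their highest levels lay in different classes or, for Fgfr2 and Fgfr3, because their ratios of radial glia to Olig-positive cells without Pdgfra differed. The windows of Erbb2 and Nrg3 are not shown. Capitals mark matches to a GC box (GGGCGG or its complement CCGCCC) or an E-box (CAGCTG), and a SOX-type motif (ACAAAG) was searched on both strands as well. No matches shared a base in the windows shown.
Fgfr2, chr7:130266759-130267058, minus strand: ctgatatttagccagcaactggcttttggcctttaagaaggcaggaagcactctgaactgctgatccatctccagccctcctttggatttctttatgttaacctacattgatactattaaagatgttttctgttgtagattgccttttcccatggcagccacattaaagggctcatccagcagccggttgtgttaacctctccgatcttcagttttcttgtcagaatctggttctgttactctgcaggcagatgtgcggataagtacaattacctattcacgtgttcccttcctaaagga
Fgfr3, chr5:33721474-33721773, plus strand: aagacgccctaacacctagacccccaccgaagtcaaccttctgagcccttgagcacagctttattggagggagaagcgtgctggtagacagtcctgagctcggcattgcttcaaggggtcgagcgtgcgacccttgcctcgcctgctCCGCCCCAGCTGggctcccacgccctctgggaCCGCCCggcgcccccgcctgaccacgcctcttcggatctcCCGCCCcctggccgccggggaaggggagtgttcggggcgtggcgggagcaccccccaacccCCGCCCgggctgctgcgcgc
Egfr, chr11:16751953-16752252, plus strand: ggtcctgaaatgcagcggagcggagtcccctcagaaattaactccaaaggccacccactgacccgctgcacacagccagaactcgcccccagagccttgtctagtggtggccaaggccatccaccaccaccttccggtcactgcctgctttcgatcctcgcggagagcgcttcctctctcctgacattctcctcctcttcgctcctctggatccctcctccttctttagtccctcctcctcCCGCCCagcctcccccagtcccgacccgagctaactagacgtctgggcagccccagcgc
Erbb4, chr1:69108010-69108309, minus strand: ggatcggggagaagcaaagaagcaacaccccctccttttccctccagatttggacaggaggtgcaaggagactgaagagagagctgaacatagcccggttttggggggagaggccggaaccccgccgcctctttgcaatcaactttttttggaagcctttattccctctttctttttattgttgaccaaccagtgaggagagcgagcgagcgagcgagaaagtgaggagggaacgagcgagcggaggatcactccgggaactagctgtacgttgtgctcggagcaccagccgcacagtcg

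The Fgfr3 window shown held 4 GC boxes and 1 E-box and was 69.7% G or C, and the Egfr window held 1 GC box at 62.3%. A second Fgfr3 window, chr5:33722056-33722355, is not shown and held 2 GC boxes, which overlap, and no E-box at 73.0%. The windows of Fgfr2 (43.7%) and Erbb4 (55.3%) held none of the 3 motifs. Of the 32851 RefSeq promoter windows, 35.7% held a GC box, 16.3% an E-box and 18.7% the SOX-type motif, so that each motif is common. The matches describe the letters only and were not related to the levels below.

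The first question was where the FGF receptors were expressed. All of Fgfr1, Fgfr2 and Fgfr3 were highest in radial glia, and each was above the layer neurons there by a ratio whose interval leaves out 1. Levels are given as UMIs per 1000000 UMIs of nuclear genes (CPM), summed over the cells of a class. UMIs are read from the 3′ end and are not scaled by length, so levels are compared between classes and not between genes.

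Fgfr1, the receptor found most widely in the forebrain, had a level of 272 CPM (248 to 298) in radial glia and 23.3 CPM (21.7 to 24.9) in all layer neurons. The ratio was 11.7 (10.4 to 13.1), and 8.39 (6.71 to 10.5) with each cell thinned to 2000 UMIs. The next levels were 123 CPM in Olig-positive cells without Pdgfra and 108 CPM in dividing cells, which did not differ beyond counting error (ratio 1.14, 0.892 to 1.46). At least 1 Fgfr1 UMI was found in 81.7% of radial glia, at a median depth of 7211 UMIs, and in 18.6% of layer neurons, at 9362 UMIs. After every cell had been thinned to 2000 UMIs these shares were 46.0% and 6.04%.

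Among excitatory neurons, Fgfr1 was lower at each step from newborn to young upper-layer to layer II/III neurons, whose order in age was not measured. It was 75.6 CPM (63.0 to 89.8) in newborn neurons, 44.8 CPM (41.2 to 48.7) in young upper-layer neurons and 12.2 CPM (8.40 to 17.1) in layer II/III. Newborn neurons, a class that can hold progenitors, were 1.69-fold (1.38 to 2.04) above young upper-layer neurons. The latter in turn were 3.67-fold (2.59 to 5.39) above layer II/III. The young upper-layer neurons and layer II/III passed the same gate except for Igfbpl1, a gene of newly formed neurons. Layer II/III, layer VI (11.3 CPM) and the Rorb-gated neurons (11.0 CPM) did not differ beyond counting error. Of the 808 Fgfr1 UMIs of all layer neurons, 569 came from the young upper-layer neurons.

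Fgfr1 was also counted in both interneuron groups, which arise in the medial and the caudal ganglionic eminence of the ventral forebrain. It was 26.3 CPM (15.8 to 41.0) in caudal and 7.02 CPM (2.82 to 14.5) in medial interneurons, a ratio of 3.74 (1.51 to 10.5), from 19 and 7 UMIs. After thinning, 3.31% (1.08 to 7.56) of caudal and 2.80% (0.767 to 7.01) of medial cells had an Fgfr1 UMI, with intervals that overlap. Of the genes held back to check radial glia, Pax6 (135.5 and 2.01 CPM) and Vim (91.3 and 7.03 CPM) were higher in caudal cells. So were Fabp7 (47.02 and 14.05 CPM), Slc1a2 (44.26 and 10.04 CPM) and Tnc (12.45 and 0 CPM). Aldh1l1 was 0 in both groups. Whether this bears on Fgfr1 was not tested.

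Fgfr2 is a close relative of Fgfr1 that is known from radial glia and later from oligodendrocytes and astrocytes. Its level was 85.6 CPM (72.3 to 101) in radial glia, 32.0 CPM in dividing cells, 27.0 CPM in Olig-positive cells without Pdgfra and 17.1 CPM in newborn neurons. All layer neurons had 5.65 CPM (4.89 to 6.50), so that radial glia were 15.1-fold (12.2 to 18.8) higher. In oligodendrocyte precursors only 3 UMIs were counted, a level of 2.79 CPM (0.575 to 8.15), and radial glia were 30.7-fold (10.3 to 151) above them. Among the 12 classes in order of level, 1 of 11 neighbouring pairs of Fgfr2 differed beyond counting error, the step from radial glia to dividing cells.

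Fgfr3, a marker of radial glia and astrocytes, did not differ beyond counting error between radial glia (128 CPM, 112 to 146) and Olig-positive cells without Pdgfra (120 CPM, 103 to 139). The ratio was 1.06, with an interval from 0.870 to 1.30. It was 16.7 CPM (9.92 to 26.4) in oligodendrocyte precursors, and the Olig-positive cells without Pdgfra were 7.18-fold (4.41 to 12.4) above these. Radial glia were 31.7-fold (25.5 to 39.4) above layer neurons, which had 4.03 CPM, and 48.1-fold after thinning. Both interneuron groups had 0 Fgfr3 UMIs, where 3 UMIs would have been 1.75 CPM.

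All of these receptors were thus lower in oligodendrocyte precursors than in radial glia, but only Fgfr3 had a like level in radial glia and in the Olig-positive cells without Pdgfra. The ratio of radial glia to these cells was 2.21 (1.86 to 2.64) for Fgfr1 and 3.17 (2.22 to 4.62) for Fgfr2. Of the 160 Olig-positive cells without Pdgfra, 136 passed the limit of the radial glia markers as well, and 24 did not. In the 24 cells Fgfr2 had 0 UMIs, with an upper limit of 25.8 CPM, against 29.9 CPM (21.3 to 40.7) in the 136. Fgfr1 was 42.0 CPM against 131 CPM, a ratio of 3.13 (1.41 to 8.64) for cells with these markers. For Fgfr3 that ratio was 1.79 (0.951 to 3.80), which counting error does not set apart from 1. Median depth was 9152 UMIs in the 136 cells and 5225 in the 24.

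A cell could carry several FGF receptors. At least 1 UMI of any of the 3 was found in 94.5% (90.7 to 97.0) of radial glia, 78.8% (71.6 to 84.8) of Olig-positive cells without Pdgfra and 39.4% (31.0 to 48.3) of oligodendrocyte precursors. After thinning to 2000 UMIs the shares were 64.3%, 43.8% and 13.6%, in the same order, and 7.79% in layer neurons. UMIs of 2 or more of these genes were seen in 68.5% of radial glia and 5.30% of oligodendrocyte precursors.

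**Figure D1:**
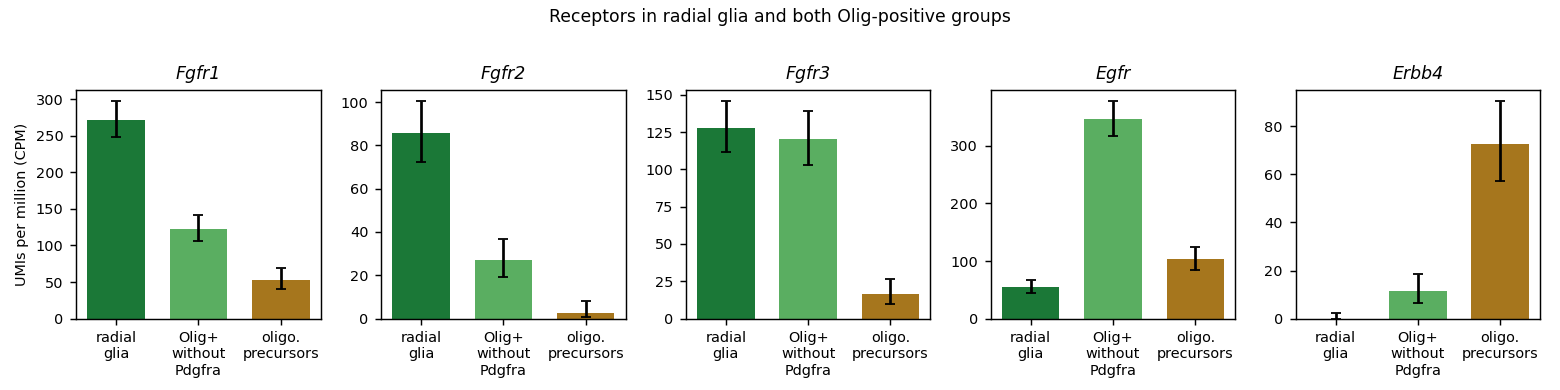
Levels in CPM of Fgfr1, Fgfr2, Fgfr3, Egfr and Erbb4 (vertical axes, from 0) in radial glia, Olig-positive cells without Pdgfra and oligodendrocyte precursors, with 95% counting intervals. Fgfr1 and Fgfr2 step down from left to right, Fgfr3 stands at 128 and 120 CPM before it drops to 16.7 CPM, Egfr peaks in the middle group at 347 CPM, and Erbb4 is highest in the precursors at 72.5 CPM.

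Free RNA in the droplets can give UMIs in cells that do not express a gene. Fabp7, an abundant gene of radial glia, stood at 0.160% (0.150 to 0.170) of its radial glia level in layer neurons. The corresponding values were 8.57% for Fgfr1, 6.60% for Fgfr2 and 3.16% for Fgfr3. The other 5 genes held back to check radial glia stood between 0.189% (Aldh1l1) and 2.33% (Slc1a2) in layer neurons. The shares of Fgfr1 and Fgfr2 lay above all of these, and the interval of Fgfr3 (2.54 to 3.92) overlapped that of Slc1a2 (2.09 to 2.60).

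The next question concerned the EGF receptor family. Egfr was highest in the Olig-positive cells without Pdgfra and near 0 in the layer neurons. The level was 347 CPM (317 to 378) in these cells, 109 CPM (89.4 to 131) in dividing cells, 103 CPM (84.9 to 124) in oligodendrocyte precursors and 55.5 CPM (45.0 to 67.8) in radial glia. They were 3.36-fold (2.73 to 4.16) above oligodendrocyte precursors, 6.25-fold (5.01 to 7.85) above radial glia and 3.18-fold (2.58 to 3.95) above dividing cells. The ratio to oligodendrocyte precursors was 5.12 after thinning and 5.78 without cells with division markers. An Egfr UMI was found in 85.0% of the Olig-positive cells without Pdgfra, at a median depth of 8552 UMIs, and in 0.481% of layer neurons. After thinning, the shares were 47.5% and 0.120%.

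Of the Olig-positive cells without Pdgfra, 67.5% held both an Egfr UMI and a UMI of an FGF receptor. In radial glia this was 23.4%, and in oligodendrocyte precursors 17.4%. These shares are not thinned, but the median depths of the 3 classes lay between 7211 and 8552 UMIs.

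Egfr was lower in neurons. Newborn neurons had 30.7 CPM (22.9 to 40.3), and dividing cells were 3.55-fold (2.53 to 5.04) above them, while all layer neurons had 0.490 CPM (0.285 to 0.784), from 17 UMIs in 3326 cells. Newborn neurons, a class that can hold progenitors, were 62.7-fold (35.7 to 116) above the layer neurons. Both interneuron groups together had 10.5 CPM (6.20 to 16.5), from 18 UMIs, which was 21.4-fold (10.4 to 44.1) above layer neurons. This was 3.02% of the Egfr level of the Olig-positive cells without Pdgfra. In layer neurons it was 0.141%, no higher than the 0.411% of Fabp7 against the same cells, so that Egfr in layer neurons is not read as expression.

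Within classes, the relation of the Egfr level in CPM to cell division ran in different directions. The 24 dividing oligodendrocyte precursors had 179 CPM (132 to 237) and the 105 that were not dividing had 69.0 CPM (51.9 to 90.1), a ratio of 2.59 (1.72 to 3.90). Dividing cells with radial glia markers (28 cells) had 133 CPM against 55.5 CPM in the radial glia that were not dividing, a ratio of 2.40 (1.64 to 3.45). In the Olig-positive cells without Pdgfra, however, the 61 dividing cells had 305 CPM and the 89 that were not dividing 399 CPM, a ratio of 0.764 (0.637 to 0.916). Cells between the limits of both groups, 3 precursors with 9 Egfr UMIs and 10 Olig-positive cells without Pdgfra with 22, were left out of these ratios. Each difference lies outside counting error, while the spread between animals is not known. The dividing Olig-positive cells without Pdgfra were also lower in Fgfr1 (0.648, 0.469 to 0.890) and Fgfr3 (0.651, 0.472 to 0.8925), while the interval of Fgfr2 held 1 (0.902, 0.447 to 1.82). An Egfr UMI was found in 91.8% of these dividing cells, at a median depth of 11570 UMIs, and in 80.9% of those not dividing, at 7664 UMIs.

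The dividing cells could be split by lineage. Egfr was 133 CPM (97.1 to 178) in those with radial glia markers, 85.1 CPM (54.5 to 127) in the 24 with Eomes and 91.3 CPM (62.1 to 130) in the 35 with interneuron markers. The ratio of the first to the second was 1.56 (0.933 to 2.69), and of the first to the third 1.46 (0.902 to 2.38), so that neither interval leaves out 1. By contrast, Fgfr3 had 25 UMIs in the dividing cells with radial glia markers and 0 in the groups with Eomes and with interneuron markers. Fgfr2 had 27 UMIs there and 1 in each of those groups, with a ratio of 22.5 (3.71 to 923) to the Eomes group. A further 7 dividing cells carried none of these markers. They had 3 Fgfr2 UMIs, 2 Fgfr3 UMIs and 9 Egfr UMIs, the last a level of 216 CPM (98.6 to 410).

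Erbb2, the partner receptor without a ligand, was rare, with 79 UMIs in all kept cells. Radial glia had 23.7 CPM (17.0 to 32.2) from 41 UMIs, Olig-positive cells without Pdgfra 9.44 CPM (5.16 to 15.9) and dividing cells 6.99 CPM (2.81 to 14.4). Radial glia were 2.51-fold (1.34 to 4.98) above the Olig-positive cells without Pdgfra. In all layer neurons 2 UMIs were counted, giving a ratio of 411 with a wide interval (107 to 3510). After thinning, 8 UMIs were left in radial glia and 0 in layer neurons, a ratio of 37.7 to a floor of 3 UMIs. Oligodendrocyte precursors and both interneuron groups had 0 UMIs, where 3 UMIs would have been 2.79 and 1.75 CPM. So Erbb2 was not detectable at this depth in the 2 cell groups in which Erbb4 was highest.

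Erbb3, which is known from Schwann cells and the oligodendrocyte lineage, was at the limit of detection. Only 10 UMIs were counted in all kept cells, 5 of them in oligodendrocyte precursors (4.65 CPM, 1.51 to 10.9) and 1 in Olig-positive cells without Pdgfra. The layer neurons had 0 UMIs, and the exact interval of the ratio had a lower limit of 29.6 and no upper limit. Set against a floor of 3 UMIs for all layer neurons together, the ratio was 53.8. The 5 UMIs lay in 3.79% of the precursors.

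Erbb4 was highest in interneurons and also clear in oligodendrocyte precursors. It was 333 CPM (293 to 378) in caudal and 296 CPM (263 to 332) in medial interneurons, which did not differ beyond counting error (ratio 1.13, 0.946 to 1.34). All layer neurons had 2.28 CPM (1.80 to 2.84), and both interneuron groups together were 137-fold (108 to 176) above them. The ratio was 69.0 (57.0 to 84.0) with cells of several classes kept and 205 (115 to 402) after thinning. An Erbb4 UMI was found in 69.4% of interneurons, at a median depth of 5120 UMIs, and in 2.08% of layer neurons, at 9362 UMIs. The layer neuron level was 0.730% (0.569 to 0.927) of the interneuron level. Maf, another gene of interneurons, stood at 0.989% (0.840 to 1.16) in layer neurons, so that Erbb4 in layer neurons was no higher than this share. In radial glia, however, Maf stood at 2.56% (1.63 to 3.83) and Erbb4 at 0% (upper limit 0.687), so Maf is an uncertain gauge of free RNA. The ratio of radial glia to layer neurons in Erbb4 was 0, with an upper limit of 0.959. Whether the Erbb4 UMIs of layer neurons are expression or free RNA was not tested.

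Medial interneurons differed among themselves. The 52 cells with at least 2 UMIs of Sst, the gene of the peptide somatostatin, had 172 CPM (136 to 214) of Erbb4, and the 86 without an Sst UMI had 410 CPM (356 to 469). The ratio was 0.419 (0.319 to 0.545). An Erbb4 UMI was found in 57.7% of the cells with Sst, at a median depth of 8542 UMIs, and in 84.9% of those without, at 5932 UMIs, so the share was lower in the deeper cells. The 5 cells with 1 Sst UMI were left out. Sst is itself a gene of the medial gate, and cells without it entered through Lhx6 or Nxph1.

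In oligodendrocyte precursors Erbb4 was 72.5 CPM (57.3 to 90.5), 6.32-fold (3.71 to 11.4) above the Olig-positive cells without Pdgfra (11.5 CPM) and 31.8-fold (22.99 to 44.1) above layer neurons. The latter ratio was 15.5 (11.6 to 20.6) with cells of several classes kept and 48.3 (23.1 to 107) after thinning. Radial glia had 0 UMIs, where 3 UMIs would have been 1.73 CPM. Erbb4 thus stood highest in the glial class in which the FGF receptors stood lowest. The interneurons were 4.30-fold (3.39 to 5.52) above the precursors.

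Of the 132 precursors, 19 also carried interneuron markers such as Gad1, Gad2 and Dlx genes. Erbb4 in these 19 cells was 13.4 CPM (2.76 to 39.0), from 3 UMIs, and in the other 113 cells it was 88.1 CPM (69.3 to 111). The ratio of precursors without to those with interneuron markers was 6.60 (2.17 to 32.7). Without the 19 cells, precursors were 38.7-fold (27.8 to 53.8) above layer neurons. Maf in the precursors was 1.03% (0.377 to 2.25) of its interneuron level, whereas Erbb4 was 23.3% (18.1 to 29.5). In Olig-positive cells without Pdgfra the values were 2.37% (1.42 to 3.71) for Maf and 3.68% (2.13 to 5.95) for Erbb4, with intervals that overlap. The 24 dividing precursors had 22.4 CPM (8.21 to 48.7) and those not dividing 89.5 CPM (69.8 to 113), a ratio of 0.250 (0.0887 to 0.572). Across this split of the precursors, therefore, Erbb4 and Egfr ran in opposite directions. Median depth was 11380 UMIs in the dividing precursors and 6978 in those not dividing. It was 12170 in the 19 cells with interneuron markers and 7226 in the 113 without. How many of the 24 dividing cells were among the 19 was not counted, so these splits may not be separate results.

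**Figure D2:**
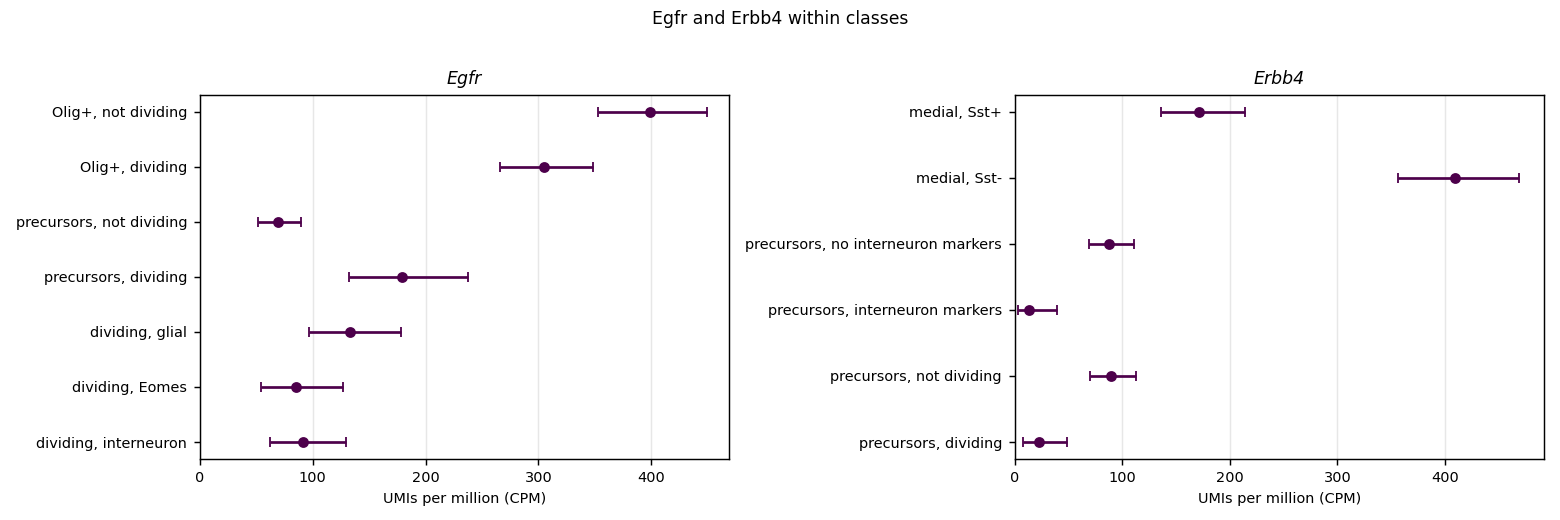
Levels in CPM (horizontal axes, from 0) of Egfr and Erbb4 in groups of cells within a class, with 95% counting intervals as bars. Olig+ stands for Olig-positive cells without Pdgfra, and precursors for oligodendrocyte precursors. Egfr is 179 CPM in the 24 dividing and 69.0 CPM in the 105 not dividing oligodendrocyte precursors, and Erbb4 is 22.4 and 89.5 CPM in the same groups. In medial interneurons Erbb4 is 172 CPM with Sst and 410 CPM without.

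The third question was which cells held the ligands. Nrg1 encodes a ligand of ERBB3 and ERBB4 that is made in many forms, which are not told apart in 3′ counts. Nrg3 encodes a ligand of ERBB4 that is known from neurons. The 2 genes were highest in different cells.

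Nrg1 was highest in radial glia among the 12 classes, at 164 CPM (145 to 184), followed by newborn neurons at 67.9 CPM (56.1 to 81.5) and Olig-positive cells without Pdgfra at 56.0 CPM (44.6 to 69.4). Radial glia were 14.2-fold (12.1 to 16.5) above all layer neurons, which had 11.6 CPM (10.5 to 12.8). A UMI was found in 65.1% of radial glia and 10.3% of layer neurons, and in 22.6% and 2.11% after thinning. In Cajal-Retzius cells, early neurons of the cortical surface of which only 15 passed the gate, Nrg1 was 197 CPM (148 to 256) from 55 UMIs, with a UMI in 93.3% of cells. These cells had a median depth of 19050 UMIs.

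Nrg1 was lower in neurons past the Eomes stage. Newborn neurons, a class that can hold progenitors, were 7.30-fold (5.60 to 9.52) above young upper-layer neurons, which had 9.30 CPM. It was also lower in dividing cells with radial glia markers (62.1 CPM) than in radial glia, with a ratio of 0.380 (0.232 to 0.592), and lower in the 61 dividing than in the 89 not dividing Olig-positive cells without Pdgfra, with a ratio of 0.423 (0.250 to 0.697). In oligodendrocyte precursors the same ratio was 1.11 (0.426 to 2.61), an interval that holds 1.

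Among layer neurons, Nrg1 was 28.2 CPM (19.0 to 40.2) in the 51 Bcl11b-gated neurons, 14.3 CPM in Rorb-gated neurons, 11.9 CPM in layer VI and 6.66 CPM (3.94 to 10.5) in layer II/III. The Bcl11b-gated neurons were 4.23-fold (2.28 to 8.06) above layer II/III and 2.38-fold (1.54 to 3.57) above layer VI. They were the deepest class at a median of 19690 UMIs. After thinning, 2 of the 51 cells (3.92%) and 5 of the 270 of layer II/III (1.85%) had an Nrg1 UMI, too few to order. Both interneuron groups together had 5.23 CPM from 9 UMIs, and the ratio of layer neurons to them was 2.21 (1.15 to 4.86). The interval held 1 with cells of several classes kept (1.34, 0.873 to 2.16) and after thinning (3.18, 0.850 to 26.8).

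Nrg3 was highest in neurons. It was 76.1 CPM (70.8 to 81.7) in layer VI, 53.5 CPM (40.5 to 69.3) in Bcl11b-gated neurons, 43.6 CPM in layer II/III, 42.5 CPM in Rorb-gated neurons and 24.0 CPM (21.4 to 26.9) in young upper-layer neurons. The 35 layer VIb neurons had 83.8 CPM (64.4 to 107). Layer VI was 1.74-fold (1.44 to 2.14) above layer II/III, and layer II/III was 1.82-fold (1.45 to 2.25) above the young upper-layer neurons. The latter were 1.70-fold (1.12 to 2.69) above newborn neurons (14.2 CPM). Thus, from newborn neurons to layer II/III, Nrg3 was higher and Fgfr1 and Nrg1 were lower.

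Nrg3 was also found in interneurons, at 36.1 CPM in medial interneurons and 26.3 CPM in caudal interneurons (ratio 1.38, 0.768 to 2.54). All layer neurons had 46.9 CPM (44.7 to 49.3), 3.25-fold (2.19 to 5.03) above radial glia at 14.5 CPM (9.35 to 21.3) and 6.31-fold (3.20 to 14.7) above oligodendrocyte precursors. The Olig-positive cells without Pdgfra had 1.35 CPM (0.163 to 4.87) from 2 UMIs, the lowest of the 12 classes. Sla and Bhlhe22, genes of layer neurons, stood at 5.46% and 4.02% of their layer neuron level in radial glia and at 5.31% and 6.17% in Olig-positive cells without Pdgfra. Nrg3 was 30.8% (19.9 to 45.6) of its layer neuron level in radial glia and 2.87% (0.348 to 10.4) in Olig-positive cells without Pdgfra. So the UMIs in the second class are within the range of free RNA, and those in radial glia are above it.

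**Figure D3:**
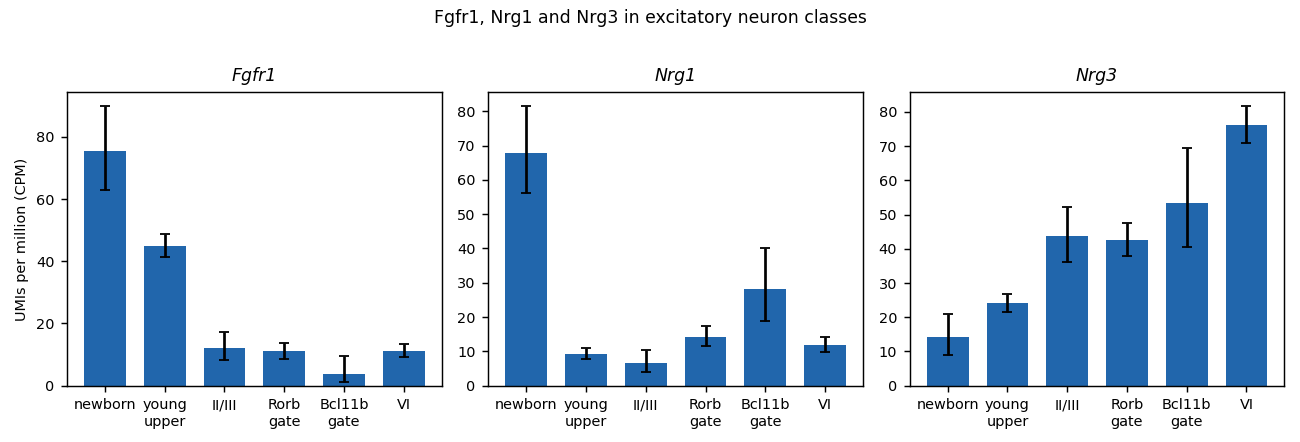
Levels in CPM (vertical axes, from 0) of Fgfr1, Nrg1 and Nrg3 in 6 classes of excitatory neurons, with 95% counting intervals. The newborn class can also hold progenitors. Fgfr1 runs from 75.6 CPM in newborn to 12.2 CPM in layer II/III neurons, Nrg1 is 67.9 CPM in newborn and 9.30 CPM in young upper-layer neurons, and Nrg3 runs from 14.2 CPM in newborn neurons to 76.1 CPM in layer VI.

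**Figure D4:**
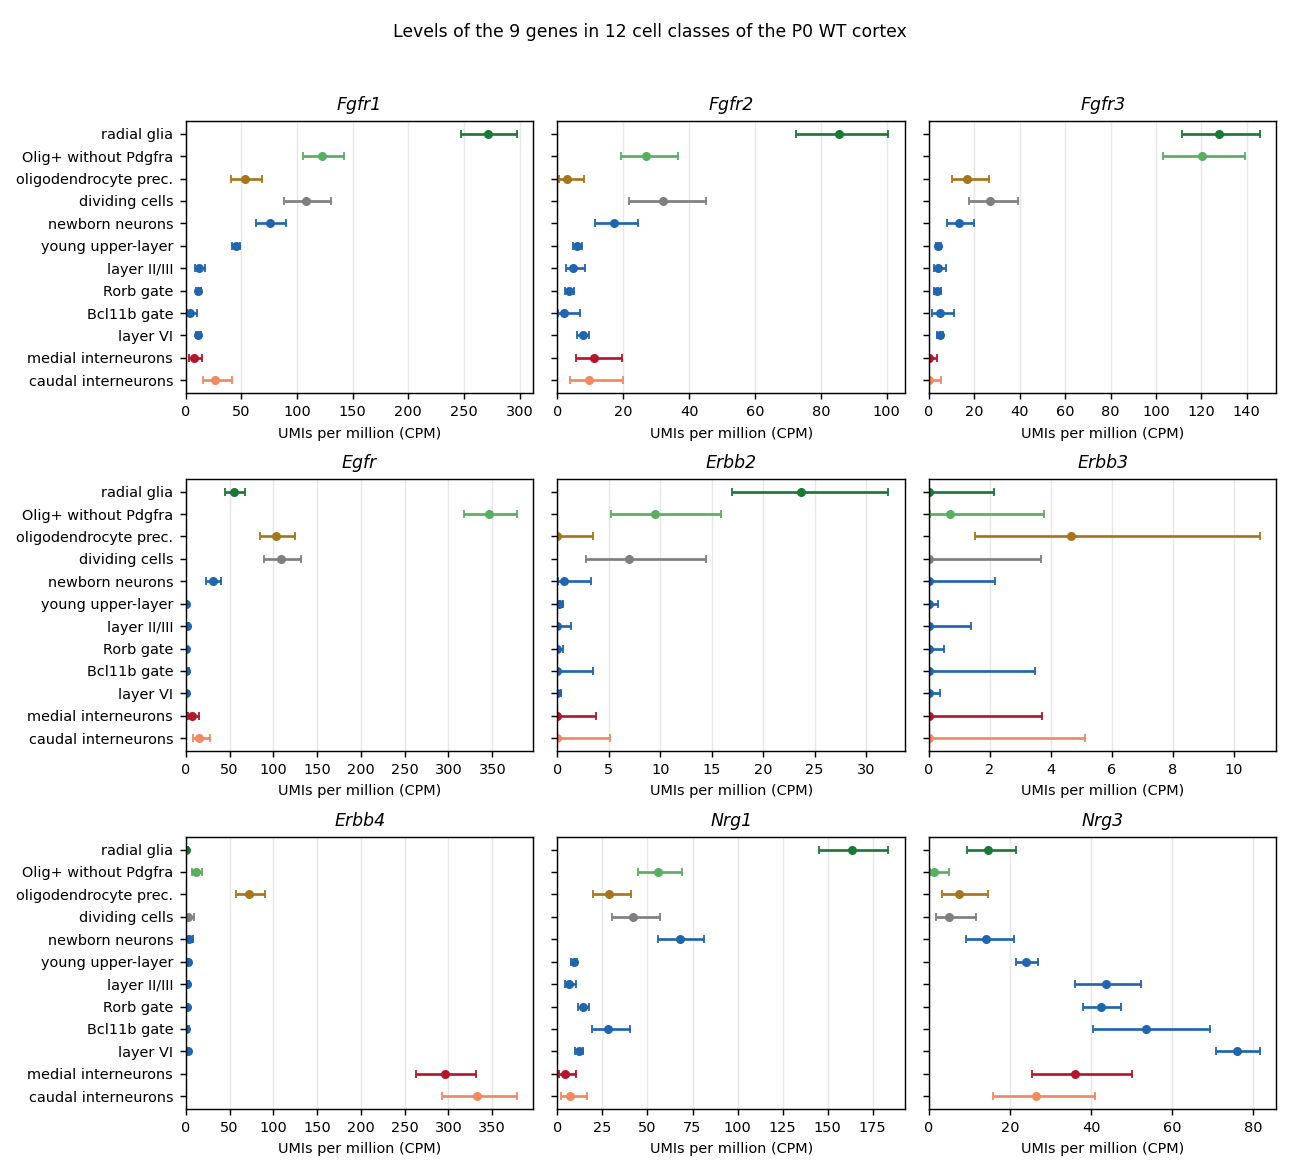
Levels in CPM (horizontal axes, from 0, a separate scale for each gene) of the 9 genes in the 12 classes, with 95% counting intervals as bars. Fgfr1, Fgfr2, Fgfr3, Erbb2 and Nrg1 are highest in radial glia, Egfr in Olig-positive cells without Pdgfra, Erbb4 in both interneuron groups and Nrg3 in layer VI, while Erbb3 rests on 5 UMIs in oligodendrocyte precursors.

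To place the 9 genes in their pathway, 91 further genes were examined in radial glia, oligodendrocyte precursors and interneurons, each against all layer neurons. A gene counted as past the fold when its level was at least 2-fold higher or lower, among genes with a mean level of at least 5 CPM in the pair. All 3 comparisons share the layer neurons. In radial glia, 23.2% of all genes past the filter were higher and 19.3% lower. Of the 9 genes 7 passed the filter, of which 6 were higher and 1 (Nrg3) lower, and of the 61 pathway genes that passed, 20 were higher and 17 lower. The pathway as a whole was therefore split, with a median log2 ratio of 0.02, the same as over all genes (0.02).

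In oligodendrocyte precursors the background was 18.7% higher and 13.6% lower, and 18 of 59 pathway genes were higher and 7 lower. Of the 9 genes 6 passed the filter, with 5 higher and 1 (Nrg3) lower. In interneurons the background was 7.05% higher and 6.18% lower, and 4 of 53 pathway genes were higher and 4 lower. Here 6 of the 9 genes passed, with 2 higher (Egfr and Erbb4) and 1 (Nrg1) lower. The other 3 that passed (Fgfr1, Fgfr2 and Nrg3) did not reach the fold. In each pair the rest of the 9 genes were below the filter, and these counts describe the fold rule only. A gene under 5 CPM in 1 class of a pair passes only through the other class, so the filter fixed its direction. This holds for Fgfr3, Egfr and Erbb2 in radial glia, and for Fgfr3, Egfr and Erbb4 in precursors. It also holds for Egfr and Erbb4 in interneurons, and for pathway genes such as Etv4, Il17rd and Spry4. The shares over all genes include such genes as well.

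Targets and inhibitors are genes that the receptors are known to switch on or genes that dampen them, and induction by the receptors was not measured. In radial glia 10 of the 17 past the filter were higher and 3 lower, where 23.2% of all genes were higher, with a median log2 ratio of 1.75 against 0.02 over all genes. In oligodendrocyte precursors 11 of 16 were higher and 0 lower, where 18.7% of all genes were higher, with a median of 2.48 against 0.10. In interneurons 1 of 14 was higher and 1 lower, a share near the background of 7.05% and 6.18%. Etv4, a transcription factor induced by FGF signals, was 71.5-fold (44.6 to 119) higher in radial glia and 102-fold (63.3 to 172) higher in oligodendrocyte precursors than in layer neurons. Il17rd, an inhibitor of FGF receptor signalling, was 26.7-fold (14.6 to 49.6) higher in radial glia. Spry4, a feedback inhibitor of the pathway, was 91.7-fold (53.5 to 164) higher in the precursors, and Egr1, an immediate early gene, 22.3-fold (20.2 to 24.5) higher.

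Spry1 and Dusp6 had different ratios in both glial classes. Spry1, a relative of Spry4 named here after its values had been seen, was 106 CPM in oligodendrocyte precursors, 5.78 CPM in radial glia and 8.19 CPM in layer neurons, so that the ratios to layer neurons were 12.9 (10.3 to 16.2) and 0.706 (0.335 to 1.32). Dusp6, a phosphatase that switches off ERK, was 2.60-fold (1.89 to 3.49) higher than layer neurons in the precursors, with ratios of 0.303 (0.138 to 0.579) in radial glia and 0.169 (0.0548 to 0.397) in interneurons. Young upper-layer neurons had 5.67 CPM of Dusp6, near the 5.20 CPM of radial glia. It was 22.9 CPM in layer II/III, 26.0 CPM in Rorb-gated, 12.2 CPM in Bcl11b-gated and 23.3 CPM in layer VI neurons.

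**Figure D5:**
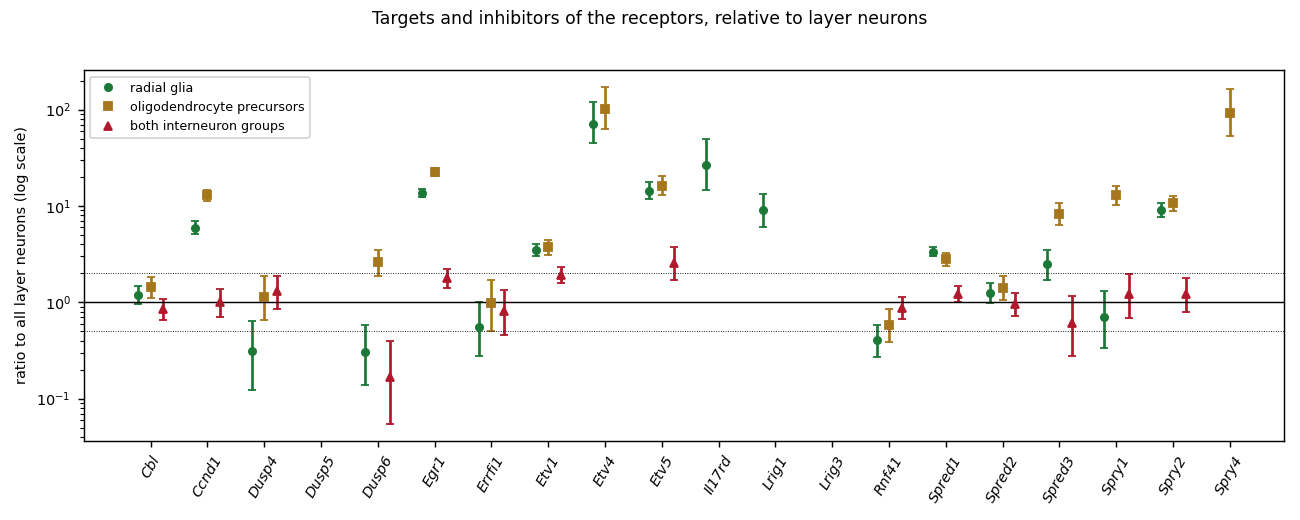
Ratio of the level in radial glia, oligodendrocyte precursors and both interneuron groups to that in all layer neurons (log axis) for the targets and inhibitors past the filter, with 95% counting intervals. Dotted lines mark 2-fold, and a gene below the filter in a pair has no point there. Etv4 reaches 71.5 and 102 in both glial classes, Spry4 is plotted in the precursors at 91.7, and Dusp6 lies above 2 in the precursors and below 0.5 in the other groups.

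Among co-receptors and ligands, the largest ratio in radial glia was that of Fgfrl1, an FGF receptor without a kinase domain, at 127-fold (77.7 to 218). The smallest were Fgf14 at 0.142 (0.0292 to 0.419), Flrt2 at 0.150 (0.0838 to 0.248) and Flrt3 at 0.157 (0.0958 to 0.243). Fgf14 belongs to the FGF-like factors that stay inside the cell and bind sodium channels, and the Flrt genes encode adhesion proteins that bind FGF receptors. In oligodendrocyte precursors low ratios were found for Fgf13, a relative of Fgf14, at 0.234 and the adhesion gene Ncam1 at 0.256. Interneurons had higher levels of Fgf12 (4.23-fold, 3.63 to 4.90), of the same intracellular family, of Erbin (4.18-fold, 3.31 to 5.24), which encodes a scaffold that binds ERBB2, and of the secreted Fgf9 (3.20-fold, 1.97 to 4.99). Flrt3 (0.324) and the syndecan gene Sdc1 (0.384) were lower. Medial and caudal interneurons had 173 and 56.7 CPM of Fgf12, 7.03 and 47.0 CPM of Flrt3, and 2.01 and 6.92 CPM of Sdc1. Layer neurons had 29.3, 73.6 and 10.6 CPM of these genes, so the caudal values lay within 2-fold of them. Erbin and Fgf9 were past 2-fold in both interneuron groups.

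Of the other ligands of EGFR and ERBB4, 3 passed the filter in radial glia, and all of them are named here after their values had been seen. Tgfa, a ligand of EGFR, was 56.7 CPM in radial glia and 62.3 CPM in oligodendrocyte precursors, which is 14.6-fold (11.1 to 19.0) and 16.0-fold (11.8 to 21.6) above layer neurons. In the Olig-positive cells without Pdgfra, where Egfr was highest, Tgfa was 14.8 CPM. Hbegf, which encodes a ligand of EGFR and ERBB4, was 8.10 CPM in radial glia and 26.9 CPM in layer neurons, with a ratio of 0.301 (0.164 to 0.508), and the neuregulin gene Nrg2 was 2.31 and 14.3 CPM, from 4 UMIs in radial glia.

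Across the 12 classes, other genes were ranked by the correlation of their log2 level with that of each gene. The points share 1 library and a few related classes, so that the coefficients are a description. The 3 genes most like Fgfr1 were Gm45762, Fam210b and Cnn3 (r = 0.97 for each). For Fgfr2 they were Dusp1, Gramd4 and Ngly1 (r from 0.94 to 0.96), for Fgfr3 Cbs, Bckdhb and Magt1 (0.96 to 0.97), and for Egfr Srp9, Tfdp2 and Fam96a (0.97 to 0.98). For Erbb4 they were Gm37735, Elfn1 and Ets1 (0.95 to 0.96), for Nrg1 Cbr4, Ech1 and Cib1 (0.95 for each), and for Nrg3 Cers4, AC154231.4 and Apbb1 (0.96 to 0.97). Among the 9 genes themselves, the largest positive coefficient was that of Fgfr3 with Nrg1 (0.89) and the most negative that of Egfr with Nrg3 (-0.91), where Erbb2 and Erbb3 were left out for having fewer than 200 UMIs.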

How the data were processed

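The authors dissociated P0 cortex with papain and made 10x 3′ libraries (version 3.1 kit), which a company sequenced and counted. The processing notes of the submitters name STAR, Cell Ranger, Seurat and mm9, with no roles. The authors deposited raw UMI counts per gene and cell with no normalization, and a table of the total counts per cell, which equalled the sums here in all 11062 cells.

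Here, mitochondrial genes were left out of totals, and cells were kept at 2000 or more nuclear UMIs and under 10% mitochondrial UMIs. Classes needed set UMIs of marker genes, such as 10 for radial glia, 3 of Olig1 or Olig2 without Pdgfra, 2 of Pdgfra with 2 of Olig1 or Olig2, 5 of division markers, 2 of Eomes, 3 of interneuron markers and 5 of Neurod6 and Neurod2. Since these limits are fixed, deeper cells pass them more easily. UMIs were summed per class and given as CPM with exact Poisson intervals, shares with Clopper-Pearson intervals and ratios with the exact conditional binomial interval, all at 95% (Python 3.11.15, scipy 1.17.1, scanpy 1.11.5). Zero counts were read against 3 UMIs. The genes named beyond the 9 were those past the fold with the 3 largest and 3 smallest ratios per comparison (with some results not reported here), and the 3 most correlated genes among those with at least 200 UMIs, on log2(CPM + 1). The members, gene lists and markers were chosen with earlier results of these data known. The fold rule was run on simulated Poisson counts with set changes. These hold no spread between cells, free RNA or mixing of classes, so that run cannot show how the rule deals with them.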

Additional observations from a re-analysis of the deposited data

How the results depend on the processing

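No paired analysis was possible because all cells came from 1 library. Each of 12 ratios was recomputed with all cells of at least 500 UMIs, at least 4000 nuclear UMIs, 1 more UMI in each gate, cells of several classes kept, cells thinned to 2000 UMIs, means over cells and mitochondrial genes in the total. The doublet caller Scrublet marked 0 of 11062 cells and so did not work, and the 8% of cells with the highest score were left out instead, a choice made after seeing the data. They held 67.9% of the cells of several classes. Of 96 values, 82 stayed within the main 95% interval, 14 left it and 0 crossed 1. Cells of several classes kept gave 10.2 for Fgfr1 and 25.2 for Fgfr3 in radial glia over layer neurons, 11.4 for Nrg1 in the same pair, 69.0 for Erbb4 in interneurons and 15.5 for Erbb4 in oligodendrocyte precursors over layer neurons. Thinning gave 8.39 for Fgfr1, 48.1 for Fgfr3, 37.7 for Erbb2 (against a floor of 3 UMIs since 0 were left in layer neurons), 5.12 for Egfr in Olig-positive cells without Pdgfra over precursors, 205 for Erbb4 in interneurons and 48.3 in precursors, and it left Erbb3 with too few UMIs. Means over cells gave 9.27 for Fgfr1, and have no value for Erbb3. A limit 1 UMI higher in each gate gave 4.70 for Egfr, and leaving out cells with division markers, also chosen after seeing the data, gave 5.78. For Nrg1, layer neurons over interneurons, the interval held 1 with cells of several classes kept (1.34, 0.873 to 2.16) and with thinning (3.18, 0.850 to 26.8). The cause of these shifts was not tested, and they change no direction.

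Of the pathway genes in radial glia, 35 of 83 (42.2%, with 45.5% of all genes) were higher without the filter on low levels, where 20 of 61 were with it. Lower were 10 of 61 at 3-fold (16.4%, with 12.6% of all genes) and 11 of 45 at a mean of 20 CPM (24.4%, with 17.3%), in place of 17. In precursors, 36 of 82 (43.9%, with 46.7%) were higher without the filter, in place of 18 of 59, and 4 of 59 (6.78%, with 8.04%) lower at 3-fold, in place of 7. In interneurons, 2 of 38 (5.26%, with 4.62%) were higher at 20 CPM and 22 of 82 (26.8%, with 37.4%) without the filter, in place of 4 of 53. Lower there were 2 of 53 (3.77%, with 3.35%) at 3-fold, 2 of 38 (5.26%, with 4.71%) at 20 CPM and 7 of 82 (8.54%, with 4.39%) without the filter, in place of 4. Without the filter, genes at 0 to 2 UMIs are set to 3, so that some are counted as higher whose measured level was lower: 8 of the 35 in radial glia, 11 of the 36 in precursors and 10 of the 22 in interneurons. These counts and the shares of all genes beside them therefore depend on the floor and are not read as expression. With the filter, 0 genes were so affected. Values under about 10 UMIs, which include all of Erbb3, have intervals wide enough that only their order of size is known.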
